A study of Mus musculus with 4 samples.

Results

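Neural lineage miRNAs were compared between WT R1 mouse embryonic stem cells (ESCs) and R1 ESCs in which the 3 genes for the DNA methyltransferases (DNMTs) Dnmt1, Dnmt3a and Dnmt3b are knocked out (TKO), to see whether the lower level of miR-124 (mmu-miR-124) in TKO cells was shared by other miRNAs of neurons. The members were taken by name, as all probes for miR-124, miR-9, miR-128, miR-137, miR-132 and miR-212 with any letter, arm or star. miR-124 itself was chosen by its difference between TKO and WT cells, and the other names by their known place in neurons. This gave 6 of the 566 mouse probes on the panel, 1 for each name, and no probe for a star strand. Mature miRNAs were counted in total RNA with the NanoString nCounter assay, which reads 1 barcoded probe per miRNA, in 2 biological replicates of each genotype. Both genotypes were grown on gelatin in serum with leukemia inhibitory factor, and the labels state 4 days of differentiation before RNA isolation for all 4 samples. TKO was the only genotype set against WT, and a change caused by the loss of DNMTs and a difference between the cell lines cannot be told apart. The probes do not measure the DNMT transcripts, so the knockout itself was not checked here.

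A miRNA guides the Argonaute complex to messenger RNAs that pair with its seed, which dampens their translation and stability. miR-124 is the best known miRNA of neurons, where it represses transcripts of non-neuronal cells and the splicing regulator Ptbp1. miR-9 acts in neural progenitors and in neurogenesis, miR-128 and miR-137 are enriched in neurons, and miR-132 and miR-212 are made from 1 shared primary transcript that responds to neuronal activity through CREB.

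The sequences are given to show which of these miRNAs share a seed. RefSeq (GRCm38.p6) held a mature sequence for 5 of the 6 members, taken as the main arm that the older names without an arm stand for, and miR-124 is named only. They are written from the 5′ end, with the seed (bases 2 to 8) in capitals.
miR-9-5p: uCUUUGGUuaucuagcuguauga
miR-128-3p: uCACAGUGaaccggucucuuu
miR-137-3p: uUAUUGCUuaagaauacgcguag
miR-132-3p: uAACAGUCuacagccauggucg
miR-212-3p: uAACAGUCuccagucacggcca
miR-132-3p and miR-212-3p have the same seed and the same base at 17 of 22 positions. The others have seeds of their own, and no further mature mouse miRNA in the RefSeq table shares a seed with any of the 5.

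The 6 miRNAs come from 11 precursor genes. Mature miR-124 can come from 3 of them, Mir124a-1 within the long noncoding Mir124a-1hg on chromosome 14 (64590657 to 64590741), Mir124a-2 within Mir124-2hg on chromosome 3 (17795662 to 17795770), and Mir124a-3 on chromosome 2 (180894040 to 180894107), which lies in no other gene. miR-9 also has 3 precursors, each within the span of a long noncoding gene, on chromosomes 3, 13 and 7. The 2 precursors of miR-128 lie within R3hdm1 on chromosome 1 and Arpp21 on chromosome 9, both protein-coding. Mir137 on chromosome 3 (118433857 to 118433929) lies in no other gene. The annotation used gives gene spans only, without exons or introns. The study sorted mouse precursors by CpG methylation at their edges, and it placed Mir124a-2 and Mir9-1 among those methylated downstream. The other precursors of miR-124 and miR-9, as well as Mir128-2, Mir137, Mir132 and Mir212, are in its flat group, and Mir128-1 is not listed. A probe for a mature miRNA cannot tell its precursors apart.

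All values are normalized counts, that is, counts scaled per sample by the authors. Counts recovered from them summed to between 511661 and 613666 per sample. The 33 probes for viral miRNAs, which mouse cells do not make, served as an estimate of background. Their mean was 31.5 normalized counts and their mean plus 2 SD was 69.2. The miR-290 to miR-295 cluster, which defines mouse ESCs, summed over its 11 probes to 338120 and 332117 normalized counts in the WT samples against 271498 and 295039 in the TKO samples. Differences are given as log2(normalized count + 1) in TKO less that in WT cells, tested with limma and Benjamini-Hochberg adjustment over all 566 mouse probes. Limma called 24 probes lower and 24 higher, or 17 lower and 27 higher when samples were scaled to equal sums. The median difference of all mouse probes was -0.12, and it moved to 0.0089 with that scaling.

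For miR-124 the WT replicates gave 499.8 and 457 normalized counts and the TKO replicates 132 and 134. Both TKO values lie below both WT values, and in every sample no viral probe reached the level of miR-124. The log2 difference came to -1.84 (SE 0.15, n = 2 and 2), and TKO cells held 27.8% of the WT mean. This is the fourth lowest difference of all mouse probes (rank 4 of 566). miR-124 was chosen for this difference, which is therefore a description without a test. The exact Poisson 95% intervals ran from 417 to 547 normalized counts over the WT replicates and from 111 to 160 over the TKO replicates. These intervals cover counting error only. With the mean of the viral probes subtracted from each sample the difference was -2.10. In these bulk samples, fewer cells that make a miRNA and less of it per cell cannot be told apart.

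**Figure D1:**
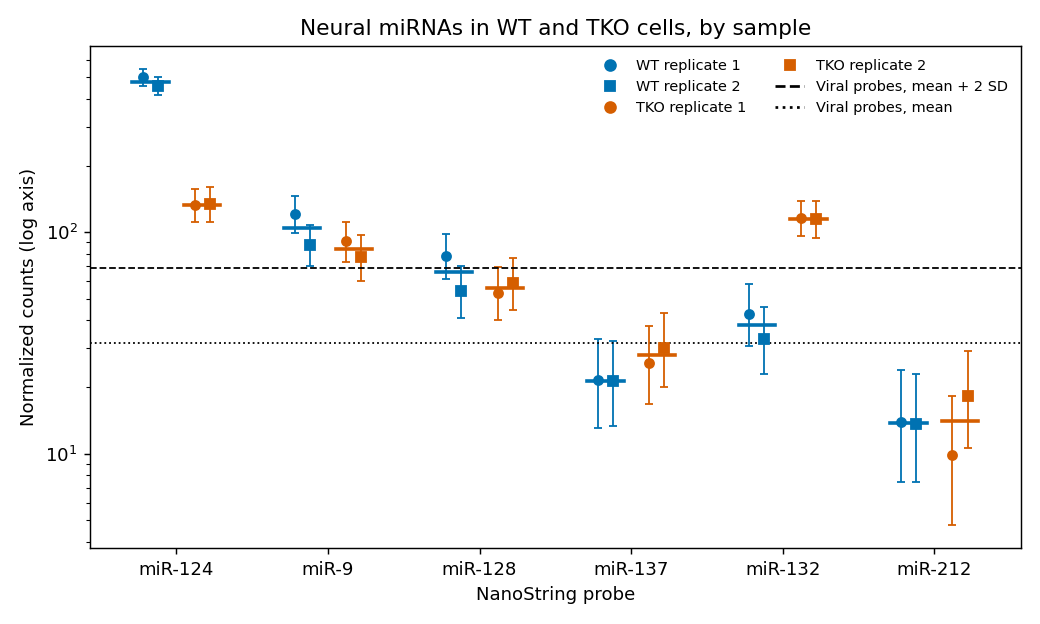
Normalized counts of the 6 neural miRNAs on a log axis, with 1 point per sample (blue, WT; orange, TKO; circles, replicate 1; squares, replicate 2), exact Poisson 95% intervals of the counts as error bars and group means as horizontal bars. miR-124 goes from a mean of 479 in WT to 133 in TKO cells and miR-132 from 37.9 to 115, while the samples of miR-9, miR-128 and miR-212 overlap between genotypes.

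Of the other 5 members, limma called 1 higher (miR-132) and 0 lower, where 4.24% of all mouse probes were called higher and 4.24% lower. At an unadjusted p under 0.05 limma also gave 1 higher and 0 lower, beside 8.13% and 15.4% of all mouse probes. voom, the weighting of limma for counts, run on counts recovered from the same values, called 1 higher and 0 lower, beside 5.30% and 9.72% of all mouse probes. The median difference of these 5 was -0.029, beside -0.12 over all mouse probes, with 3 below and 2 above 0. The lowest bound of their 95% intervals was -0.89, that of miR-9. In WT cells only miR-9 (mean 104) was above the background of 69.2. The WT means of miR-128 (66.3), miR-132 (37.9), miR-137 (21.4) and miR-212 (13.8) were below it. A fall as large as that of miR-124 could not be measured from such levels, so the 0 lower calls do not show whether these shared it. Both TKO values lay on the same side of both WT values for 2 of the 5, miR-132 and miR-137. Over all mouse probes this share was 53.4%.

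miR-9, the miRNA of neural progenitors, gave 121 and 87.4 normalized counts in the WT samples against 90.9 and 77.2 in the TKO samples. The genotypes overlap, and all 4 samples are above the background of 69.2. Its log2 difference was -0.29 (SE 0.22, 95% interval -0.89 to 0.31, adjusted p = 0.504 from limma), which is -0.17 relative to the median of all mouse probes. It was between -0.52 without WT replicate 2 and -0.061 without WT replicate 1, so most of it was lost without WT replicate 1.

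miR-128 gave 78.1 and 54.4 normalized counts in the WT samples against 53.4 and 59.0 in the TKO samples. WT replicate 1 alone is above the background of 69.2, and the other 3 samples lie close together below it. In WT replicate 1, however, 4 viral probes were at or above miR-128, beside 5, 4 and 5 in the other 3 samples. The log2 difference of -0.21 (SE 0.23, 95% interval -0.82 to 0.40, adjusted p = 0.635 from limma) turned to 0.044 without WT replicate 1.

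miR-137 was at 21.4 normalized counts in both WT replicates against 25.7 and 30.0 in the TKO samples. Both TKO values are the higher ones, yet all 4 lie below the mean of the viral probes, and between 13 and 20 of the 33 viral probes in each sample were at or above it. The log2 difference was 0.36 (SE 0.16, 95% interval -0.064 to 0.79, adjusted p = 0.263 from limma). With the viral mean subtracted miR-137 was at the floor in every sample, so a change of this miRNA was not detectable above background.

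miR-132, which is known for promoting dendrite growth downstream of CREB, moved opposite to miR-124. Its WT samples gave 42.8 and 33.0 normalized counts and its TKO samples 116 and 115. The TKO replicates differ from each other by less than counting error and are both above the highest viral probe of their sample, whereas 11 and 10 viral probes were at or above miR-132 in the WT replicates. The level rose by 1.59 on the log2 scale (SE 0.19, 95% interval 1.09 to 2.09, adjusted p = 0.0163 from limma), or 3.04-fold between the means, in 2 of 2 TKO samples. It ranked 17 from the highest of 566 differences. The WT mean of 37.9 is near the viral mean of 31.5, so the size of the rise depends on how background is treated. It was 3.81 with the viral mean subtracted and 1.39 with a pseudocount of 10. With any 1 sample left out the difference stayed between 1.41 and 1.77, but no such fit called it. These fits leave 1 sample in a genotype and called few or no probes of the whole panel.

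**Figure D2:**
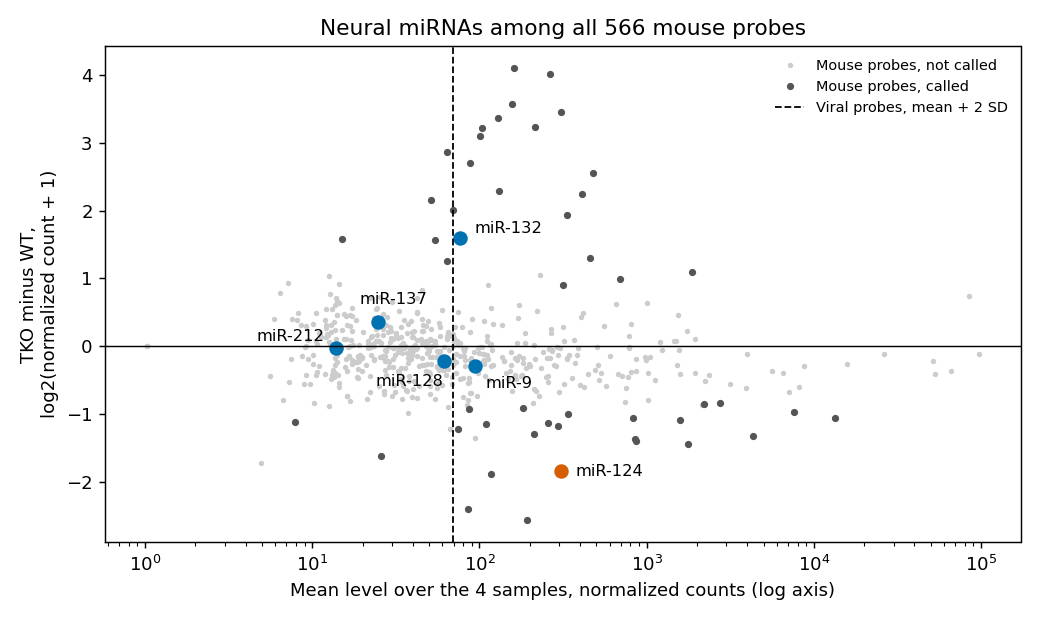
Difference between TKO and WT cells (log2 of the normalized count plus 1) against the mean level over the 4 samples (log axis) for 566 mouse probes, with the 48 probes called by limma in dark gray, miR-124 in orange and the other neural miRNAs in blue. miR-124 (-1.84) and miR-132 (1.59) lie at opposite edges of the cloud, and the other 4 lie within it, 3 of them left of the background line at 69.2.

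miR-212, which shares its seed and its primary transcript with miR-132, gave 13.9 and 13.6 normalized counts in the WT samples against 9.88 and 18.2 in the TKO samples. The TKO replicates lie on both sides of the WT values, and all 4 samples are below the mean of the viral probes. The log2 difference was -0.029 (SE 0.31, 95% interval -0.86 to 0.80, adjusted p = 0.989 from limma), and it changed sign with the scaling. The recovered counts behind these values were 13 and 14 for WT, 10 and 17 for TKO.

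Both hairpins are shown because they come from 1 locus and the probes for their mature products gave unlike values. Mir212 lies at chr11:75173388-75173478 and Mir132 at chr11:75173682-75173747 on the + strand of GRCm38.p6, with 203 bases between them and no other gene spanning either. The mature 3p arm is in capitals.
Mir212: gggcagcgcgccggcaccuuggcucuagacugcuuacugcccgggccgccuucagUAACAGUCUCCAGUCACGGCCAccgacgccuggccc
Mir132: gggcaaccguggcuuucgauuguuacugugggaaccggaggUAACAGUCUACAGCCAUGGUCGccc
The ratio of miR-132 to miR-212 was 3.08 and 2.43 in the WT samples against 11.7 and 6.30 in the TKO samples. Both TKO ratios are higher, by 1.65 in log2, and the exact two-sided permutation p was 0.333, the smallest that 2 against 2 samples can give. This ratio was examined after the values had been seen. The signal of miR-212 is not above the viral probes in any sample, so the size of the ratio is not resolved.

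Other miRNAs enriched in neurons or glia were read from a list of 10 names (miR-7, miR-129, miR-138, miR-153, miR-218, miR-219, miR-326, miR-338, miR-383 and miR-488), which matched 13 probes. Limma called 0 of the 13, where 8.48% of all mouse probes were called. At an unadjusted p under 0.05 limma gave 1 lower and 0 higher, where the shares over all mouse probes were 15.4% and 8.13%, and voom called 1 lower, where it called 9.72% of all mouse probes lower. Their median difference was -0.0099, with 8 below and 5 above 0, and 3 of the 13 had a mean above background. Those 3 are miR-7a, miR-129-3p and miR-138, which also have the highest levels of the list. The other 10 had a mean below background. A fall as large as that of miR-124 could not be measured from such levels, so the absence of calls does not show whether these 10 shared it.

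miR-7a, found in neurons and neuroendocrine cells, gave 287 and 247 normalized counts in the WT samples against 151 and 185 in the TKO samples. Both TKO values are lower, and the log2 difference of -0.66 (SE 0.19) was the lowest of the list. It was not called (adjusted p = 0.135 from limma), although voom on the recovered counts gave an adjusted p of 0.0373 and limma on probes above background 0.0341. miR-138, which acts at synapses, gave 82.4 and 96.2 in the WT samples against 72.2 and 55.7 in the TKO samples, or -0.48 in log2 (SE 0.20, adjusted p = 0.238 from limma). miR-129-3p gave 117 and 113 against 96.9 and 102, or -0.21 in log2 (SE 0.15, adjusted p = 0.463 from limma). Over the whole list, both TKO values lay on the same side of both WT values for 5 of the 13 probes. Over all mouse probes this share was 53.4%. The highest difference of the list was that of miR-383 (0.56, SE 0.59), whose WT replicates were 33.2 and 9.71 normalized counts and enclose both TKO values of 24.7 and 30.0.

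**Figure D3:**
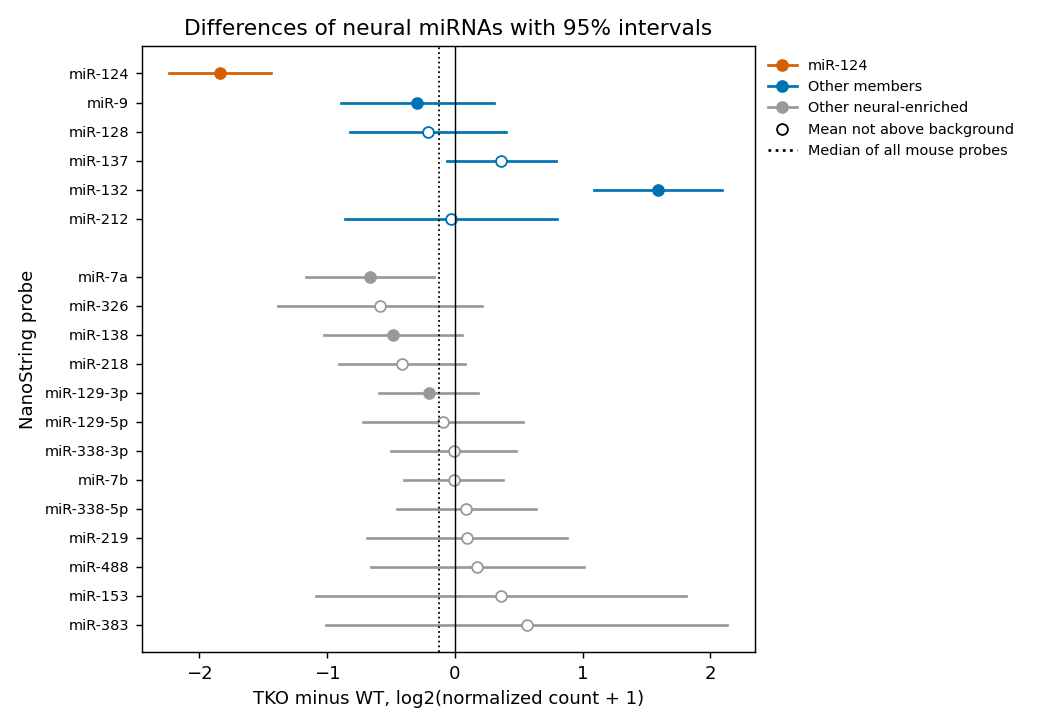
Differences between TKO and WT cells (log2 of the normalized count plus 1) with 95% intervals from limma for miR-124 (orange), the other 5 members (blue) and the 13 other neural-enriched probes (gray), where open points have a mean not above background and the dotted line is the median of all mouse probes (-0.12). miR-124 is at -1.84, miR-132 is the highest at 1.59, and 17 of the 19 lie between -0.66 and 0.56.

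The mouse probes whose pattern over the 4 samples was most like that of miR-124 were searched among 228 probes with a WT mean above background, by the root mean square distance of their log2 values after the WT mean was taken off. The nearest was miR-18b (distance 0.082), with 192 and 177 normalized counts in the WT samples against 45.5 and 53.6 in the TKO samples, the latter below background. It was followed by miR-106b (0.28), miR-205 (0.34), miR-130b (0.34) and the joint probe for miR-106a and miR-17 (0.37), with differences between -1.44 and -1.31. None of the 5 is on the lists of neural miRNAs. Beside miR-124, only miR-9, miR-7a, miR-129-3p and miR-138 of those lists passed the filter on the WT mean. The search therefore cannot show whether neural miRNAs follow the pattern of miR-124. The distance is a description over 4 samples.

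Markers of other cell types were read beside the neural miRNAs. The 7 probes for muscle (miR-1, miR-133, miR-206, miR-208 and miR-499) were all below background in their mean, with sums of 184 and 125 normalized counts in the WT samples against 155 and 197 in the TKO samples. miR-1 itself was between 7.50 and 13.6. In the liver and endoderm list 3 of 4 probes were below background, among them miR-122 (11.8 to 17.8) and miR-375 (10.7 to 15.0). The 5 fibroblast and mesenchyme probes summed to 525 and 481 against 423 and 422, and the 2 endothelial probes for miR-126 to 378 and 408 against 450 and 468. Limma called 0 of the probes on these 4 lists, where 8.48% of all mouse probes were called. voom called 0 as well, beside 9.72% lower and 5.30% higher over all mouse probes. Limma on probes above background called miR-199a-3p of the fibroblast and mesenchyme list lower, beside 48 of the 238 mouse probes kept. At an unadjusted p under 0.05 limma gave 1 lower in the liver and endoderm list and 1 lower in the fibroblast and mesenchyme list. It also gave 1 higher in the muscle list. Over all mouse probes the shares were 15.4% lower and 8.13% higher.

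Of the 6 blood probes limma called 1, miR-150 of lymphocytes, where 8.48% of all mouse probes were called. miR-150 gave 429 and 388 normalized counts in the WT samples against 167 and 193 in the TKO samples, or -1.18 in log2 (SE 0.17, adjusted p = 0.0238 from limma). This call was lost with the viral mean subtracted, with quantile normalization, with the replicate number as a block (adjusted p = 0.0738 from limma) and with any 1 sample left out. The fits with 1 sample left out called few or no probes of the whole panel. miR-142-3p, found across blood cells, gave 807 and 762 against 1159 and 1278 and was not called as reported (adjusted p = 0.0944 from limma), but was called higher by voom and by limma on probes above background, with quantile normalization and with a variance trend. miR-155 was at 1 recovered count in every sample, as was let-7a, and these were the only 2 of 566 mouse probes at this floor. The mean of the viral probes was far higher at 31.5 normalized counts, so the absence of miR-155 cannot be read from this value. The blood list summed to 1381 and 1278 against 1451 and 1622. The miR-290 to miR-295 cluster had a median difference of -0.22, beside -0.12 over all mouse probes. Limma called 0 of its 11 probes. At an unadjusted p under 0.05 limma gave 0 as well, beside 15.4% lower and 8.13% higher over all mouse probes. voom and limma with a variance trend each called the same 3 lower (miR-291a-5p, miR-293 and miR-295). Over all 566 mouse probes voom called 55 lower and the variance trend 54. The part of differentiation or of other cells in the levels of miR-124 and miR-132 was not tested.

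**Figure D4:**
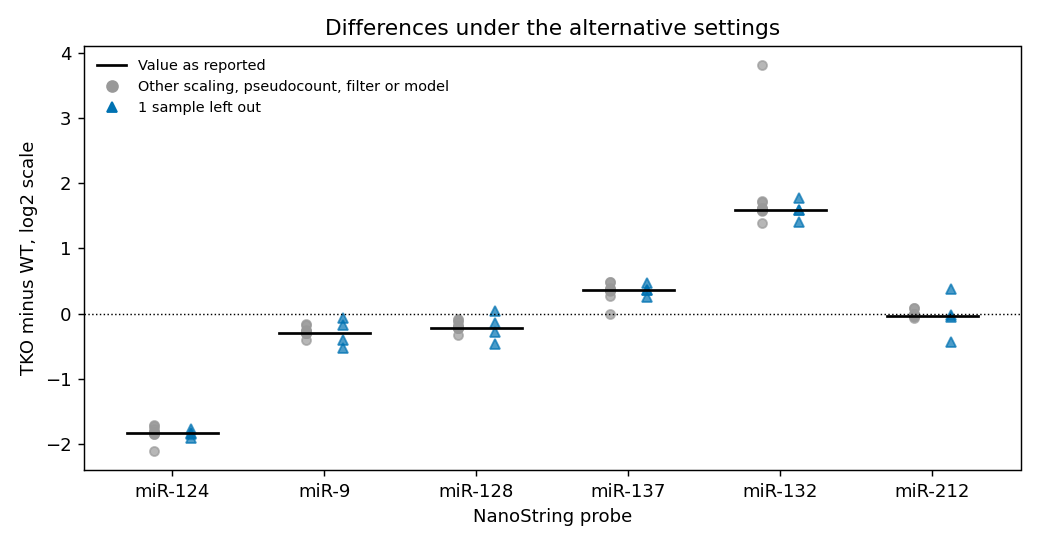
Difference between TKO and WT cells on the log2 scale for the 6 neural miRNAs as reported (black bar), under other scalings, pseudocounts, filters or models (gray points) and with 1 sample left out (blue triangles). miR-124 stays between -2.10 and -1.70 and miR-132 is at least 1.39, while miR-128 and miR-212 lie on both sides of 0.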

How the data were processed

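NanoString nCounter counts of mature miRNAs were available for 2 WT and 2 TKO samples. The authors normalized the counts in nSolver (version, background handling and scaling probes are not given in the sources used here) and deposited log2 values. These were turned back to normalized counts, which were whole multiples of 1 factor per sample (0.971 to 1.07) for 100% of values within a tolerance of 0.05 counts. The table names no probe sequences. Log2 of the normalized count plus 1 was tested with limma (lmFit and eBayes, TKO minus WT, threshold 0.05) over 566 mouse probes, with voom on the recovered counts as an alternative. The spread is that between 2 replicates per genotype. Members and lists were chosen with earlier results of these data known. All members are named, as are the 3 highest, the largest rise and fall and any called probe of the other neural list, the 5 patterns nearest to miR-124, and defining or called markers.

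On simulated data for TKO against WT (566 probes, 200 changed by a factor of 2) limma recovered 78.0% with 4.88% false calls. The spread was set to a fixed value and not estimated from these samples, and the whole count was changed, background included. The recovered share therefore does not hold for probes near background, such as miR-137 and miR-212. Fits ran in limma 3.58.1 under R 4.3.3, other steps in Python 3.11.15 with scipy 1.17.1, pandas 2.3.3 and numpy 2.4.6, and plots in matplotlib 3.10.9. Alternatives covered pseudocount, scaling, background, filter, model, replicate block and each sample left out.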

Additional observations from a re-analysis of the deposited data

How the results depend on the processing

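The difference of miR-124 stayed negative under all 16 alternatives. It was -1.77 with a pseudocount of 10, -1.70 with sum scaling, -1.71 with median scaling and -2.10 with the viral mean subtracted. miR-132 was called under all 12 alternatives that kept the 4 samples, and 0 of the 5 members other than miR-124 were called with any 1 sample left out. miR-212 turned to 0.095 with sum scaling and 0.087 with median scaling and ranged from -0.44 to 0.38 with 1 sample left out, and miR-128 from -0.47 to 0.044. The median of the 5 members was 0.65 when only probes above background were kept, which leaves miR-9 and miR-132 (miR-132 passes that filter only through its TKO level, so the filter sets this value), and between -0.18 and 0.38 with 1 sample left out. Of the other neural-enriched probes 1, miR-7a, was called on probes above background, with a variance trend and with voom. Their median was -0.48 on the 3 probes above background and between -0.23 and 0.068 with 1 sample left out. Over all mouse probes the number of calls was 48, and it was 74 on probes above background, 84 with a variance trend, 85 with voom and between 0 and 14 with 1 sample left out (0 without either TKO replicate, where unadjusted p values under 0.05 numbered 75 lower and 39 higher without replicate 1, 64 and 37 without replicate 2). The replicate numbers are shared only as numbers, and deviations of same-numbered samples correlated at -0.094 over all mouse probes and -0.24 over the 238 above background. With the replicate block limma called 30 probes and miR-132 had an adjusted p of 0.0301, and the block changed no call among the members. A crossed pairing, chosen after seeing the data, gave 64 calls. Background as well as counting error limits miR-137 and miR-212. They had at most 28 recovered counts in any sample and lay below the mean of the viral probes in each.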
